A study of Mus musculus with 24 samples.

Results

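The Egr family was followed here in the hippocampus of Aged mice through its 4 transcription factors, Egr1, Egr2, Egr3 and Egr4, and the corepressors Nab1 and Nab2. These 6 genes were taken by symbol and are 6 of the 49568 gene symbols listed in each library. Egr proteins are zinc finger transcription factors that bind GC-rich sites, and their genes are immediate early genes: in neurons, synaptic activity switches them on within minutes, without new protein synthesis. Calcium and kinase signals reach their promoters through serum response factor and its ELK partners and through CREB, which MSK1 can phosphorylate. Nab1 and Nab2 bind Egr1, Egr2 and Egr3 and repress their targets, and Nab2 is itself an Egr target. Egr1 is a standard marker of recently active hippocampal neurons and is needed for long-lasting memory, Egr2 is best known as the regulator of peripheral myelin, and Egr3 acts downstream of Egr1 in several neuronal responses.

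Poly(A) RNA was sequenced from individual hippocampi of male mice aged 21 to 23 months on a C57-Bl/6J background, 1 mouse per library and 6 libraries per group. WT mice in standard housing (WTSH) or enriched housing (WTEE) were set against mice whose endogenous MSK1 gene carries a point mutation that removes kinase activity, in the same housing conditions (KDSH and KDEE). MSK1 KD mice were homozygous in every cell and were bred as a line separate from the WT mice, so genotype and line cannot be told apart. Enriched mice had moved at 18 months to large cages with a running wheel and objects. The study's methods describe the mice used for RNA as experimentally naive, while its discussion places RNA sampling weeks after any behavioural procedures. Which mice shared a cage is not given in the sources used here. Housing was assigned by cage, with more mice in an enriched cage than in a standard one. Cage and housing may therefore not be separable, and all tests treat each mouse as independent. After quality control the study excluded samples 4 and 7 of WTSH and sample 6 of KDSH, which leaves 4 WTSH, 6 WTEE, 5 KDSH and 6 KDEE libraries. Values are of these 21 unless said otherwise, and the 3 left-out libraries are given apart.

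The 21 libraries held 27410239 to 71907130 counts on genes, and the left-out libraries 15800187 to 39585901. All 18 neuron and hippocampal subfield markers had counts in every one of the 21. The count of the MSK1 gene Rps6ka5 cannot check the genotype, since a point mutation leaves its transcript in place. The study looked at the aligned reads themselves and reports the mutated base in the MSK1 KD samples. WTEE sample 10 stood apart: it was the lowest of the 21 libraries for 5862 of the 20187 genes tested (29.0%, against 4.76% in an average library and 7.76% in the next, KDSH sample 24), and its 7 neuron markers summed to 340327 normalized counts, against 445846 to 507413 in the others. Values of Egr3 and Nab2 that move without it are given both ways. The 12 choroid plexus markers, a secretory tissue of the ventricles, summed to 1593 to 217633 normalized counts in WTSH, 2349 to 294002 in WTEE, 1361 to 5354 in KDSH and 4437 to 479802 in KDEE. The 10 structural RNA genes summed to 16528 to 1232580 in WTSH, 171124 to 671433 in WTEE, 22899 to 248084 in KDSH and 16000 to 420122 in KDEE. Pituitary markers reached 11918 in 1 KDSH library, against at most 1359 in the other 20.

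The factors and corepressors lie on 5 chromosomes (GRCm38, GENCODE M21). Egr2 (ENSMUSG00000037868) is at chr10:67535475-67542188 and Egr3 (ENSMUSG00000033730) at chr14:70077203-70082614, both on the plus strand. Egr4 (ENSMUSG00000071341, chr6:85511121-85513589), Nab1 (ENSMUSG00000002881, chr1:52457294-52500679) and Nab2 (ENSMUSG00000025402, chr10:127660918-127668568) are on the minus strand. Exons of other genes share 1241 of the 2941 exonic bases of Nab2 (42.2%), among them 1050 with the antisense gene Gm16229, 151 with Nemp1 and 40 with Stat6. Reads were counted without regard to strand, so reads over the shared bases cannot be assigned to 1 gene by strand, and Nab2 values are uncertain to that extent. The other 5 members share no exonic base with another gene.

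RefSeq promoter windows (GRCm38.p6, 250 bases before to 50 after a transcript start) are shown for Egr2, Egr4 and Nab1. These were picked after the covariation given below was seen. Egr2 and Egr4 varied together between mice. Nab1 had a Pearson r of -0.17 with Egr2 and -0.40 with Egr4, neither past an adjusted permutation p of 0.05. Nab2, which varied with both, is not printed. A relation between motifs and covariation was not tested. Windows were held for 4 of the 6 members, Egr2, Egr4, Nab1 and Nab2, and not for Egr1 and Egr3. Capitals mark the motifs searched on both strands: the CArG box bound by serum response factor, TGACG, the core of the CREB site, and GCGNGGGCG, the Egr site. No printed match overlaps another motif. The Egr2 window at chr10:67537619-67537918 is on the plus strand, and the Egr4 window at chr6:85513540-85513839 and the Nab1 window at chr1:52500399-52500698 are on the minus strand.
Egr2: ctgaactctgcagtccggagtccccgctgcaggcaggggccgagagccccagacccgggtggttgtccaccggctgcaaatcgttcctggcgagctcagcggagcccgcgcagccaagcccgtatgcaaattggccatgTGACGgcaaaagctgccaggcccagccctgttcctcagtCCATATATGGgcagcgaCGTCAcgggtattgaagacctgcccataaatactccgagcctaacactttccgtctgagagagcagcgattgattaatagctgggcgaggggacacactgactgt
Egr4: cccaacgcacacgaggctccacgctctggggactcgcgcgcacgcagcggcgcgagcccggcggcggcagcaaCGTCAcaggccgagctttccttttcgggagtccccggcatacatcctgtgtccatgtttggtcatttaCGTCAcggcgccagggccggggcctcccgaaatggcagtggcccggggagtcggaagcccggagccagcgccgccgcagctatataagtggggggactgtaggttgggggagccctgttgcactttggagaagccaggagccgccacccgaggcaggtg
Nab1: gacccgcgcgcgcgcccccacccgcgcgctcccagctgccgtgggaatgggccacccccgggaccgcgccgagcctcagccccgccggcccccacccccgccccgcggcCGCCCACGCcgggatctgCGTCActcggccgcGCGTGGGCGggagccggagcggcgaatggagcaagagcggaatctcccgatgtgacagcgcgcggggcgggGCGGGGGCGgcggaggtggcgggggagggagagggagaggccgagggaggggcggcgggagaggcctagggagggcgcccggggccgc

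The Egr2 window held a CArG box at -72 to -63 from the start, between CREB cores at -111 and -55. The Egr4 window held CREB cores at -177 and -109 and no CArG box. The Nab1 window held 3 Egr sites, at -141, -109 and -38, and 1 CREB core at -123. Of the 32851 promoter windows in the table, 1.63% held a CArG box, 20.8% the CREB core and 5.55% the Egr site. A CArG box was found in 4 of the 5 Egr2 windows. The boxes of 3 of these 4 windows are the same sequence, since the windows overlap, so there are 2 distinct boxes. The remaining Egr2 window, at chr10:67535249-67535548, and the Nab2 window held none of these motifs. These are matches of letters and not measured sites.

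Egr1 was the most abundant member per length and Egr2 by far the least. Mean levels over the 21 mice, in CPM (counts scaled to the library size) per kilobase of exon, were 38.2 for Egr1, 19.7 for Egr4, 10.8 for Egr3, 9.17 for Nab2, 7.37 for Nab1 and 1.30 for Egr2. Of 19459 tested genes with a length, 94.0% had a lower level than Egr1, 87.5% than Egr4, 77.9% than Egr3 and 37.4% than Egr2. The order from Egr1 to Egr4 to Egr3 held within every one of the 21 mice. Egr3 exceeded Nab2 in 20 and Nab2 exceeded Nab1 in 18 of them, with ratios of the means of 1.18 and 1.24. The place of Nab2 depends on the length used: over the 1700 exonic bases that it shares with no other gene, its level would be 15.9, above that of Egr3 in 21 of 21 mice. Only Nab1 and Egr2, 5.68 times apart, were neighbours in this order whose ranges over mice did not overlap. In bulk tissue, fewer cells of a type and less RNA per cell cannot be told apart.

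Egr1 showed a wide range in WTSH mice and a narrow range in KDEE mice, with the group means close together. The gene (ENSMUSG00000038418) is at chr18:34859823-34864984 on the plus strand. Its normalized counts were 11391, 5958, 6534 and 8804 in WTSH samples 2, 5, 19 and 23 and 8472, 10589, 9491, 8034 and 10082 in KDSH samples 1, 3, 8, 18 and 24. In the enriched groups the lowest, median and highest counts were 6268, 7365 and 11104 in WTEE and 6725, 7554 and 8456 in KDEE. The highest Egr1 count of all came from WTSH sample 2 and the lowest from WTSH sample 5, so both ends lay in 1 group and all groups overlapped. The means were 8172 ± 2473 (SD, n = 4) in WTSH, 7994 ± 1693 (SD, n = 6) in WTEE, 9334 ± 1072 (SD, n = 5) in KDSH and 7619 ± 693 (SD, n = 6) in KDEE.

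Egr4, the closest companion of Egr1 below, is a factor found mainly in the nervous system. Its counts were 2994, 1426, 1648 and 2299 in WTSH samples 2, 5, 19 and 23 and 2190, 2794, 2005, 1686 and 2284 in the KDSH samples in the order above. The lowest, median and highest were 1608, 2089 and 2591 in WTEE and 1431, 1882 and 2297 in KDEE. As for Egr1, WTSH samples 2 and 5 were the highest and the lowest of all mice, and the group means ran from 1840 ± 357 (SD, n = 6) in KDEE to 2192 ± 407 (SD, n = 5) in KDSH.

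Egr2 was the least abundant and the most variable member. Its counts were 421, 96.3, 232 and 303 in the WTSH samples and 174, 305, 170, 117 and 294 in the KDSH samples, in the same order. The lowest, median and highest were 180, 218 and 320 in WTEE and 75.3, 159 and 224 in KDEE. WTSH sample 2 was again the highest, KDEE sample 9 was the lowest, and WTSH sample 5 was next to lowest. The means were 263 ± 136 (SD, n = 4) in WTSH, 234 ± 57.3 (SD, n = 6) in WTEE, 212 ± 82.9 (SD, n = 5) in KDSH and 156 ± 53.5 (SD, n = 6) in KDEE.

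Egr3 lay between 1964 and 3016 counts in every mouse except WTEE sample 10. Its counts were 3016, 2585, 2194 and 2573 in the WTSH samples and 2401, 2833, 2879, 1964 and 2432 in the KDSH samples, in the same order. The lowest, median and highest were 788, 2216 and 2728 in WTEE and 2047, 2158 and 2274 in KDEE. The count of 788 belonged to WTEE sample 10 and was 0.349 times the median of the other WTEE mice, while the same mouse lay within its group for Egr1, Egr2 and Egr4. Of 7971 genes with a mean of at least 1000 normalized counts, 79 had a lower ratio in that library. KDEE was the tightest group, with 2153 ± 86.8 (SD, n = 6), against 2592 ± 336 (SD, n = 4) in WTSH, 2060 ± 661 (SD, n = 6) in WTEE and 2502 ± 373 (SD, n = 5) in KDSH.

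The corepressors were steadier. Nab1 counts were 1351, 1403, 1612 and 1479 in the WTSH samples and 1393, 1317, 1242, 1476 and 1383 in the KDSH samples. The lowest, median and highest were 1293, 1477 and 1587 in WTEE and 1379, 1525 and 1568 in KDEE, where 5 of the 6 mice lay between 1520 and 1568. Nab2 counts were 1398, 1249, 1115 and 1227 in the WTSH samples and 1409, 1468, 1371, 1113 and 1471 in the KDSH samples. Its lowest, median and highest were 1208, 1362 and 1501 in WTEE and 1020, 1227 and 1406 in KDEE. Nab2 thus had its 2 lowest mice in KDEE (samples 9 and 12) and its highest in WTEE sample 10.

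**Figure D1:**
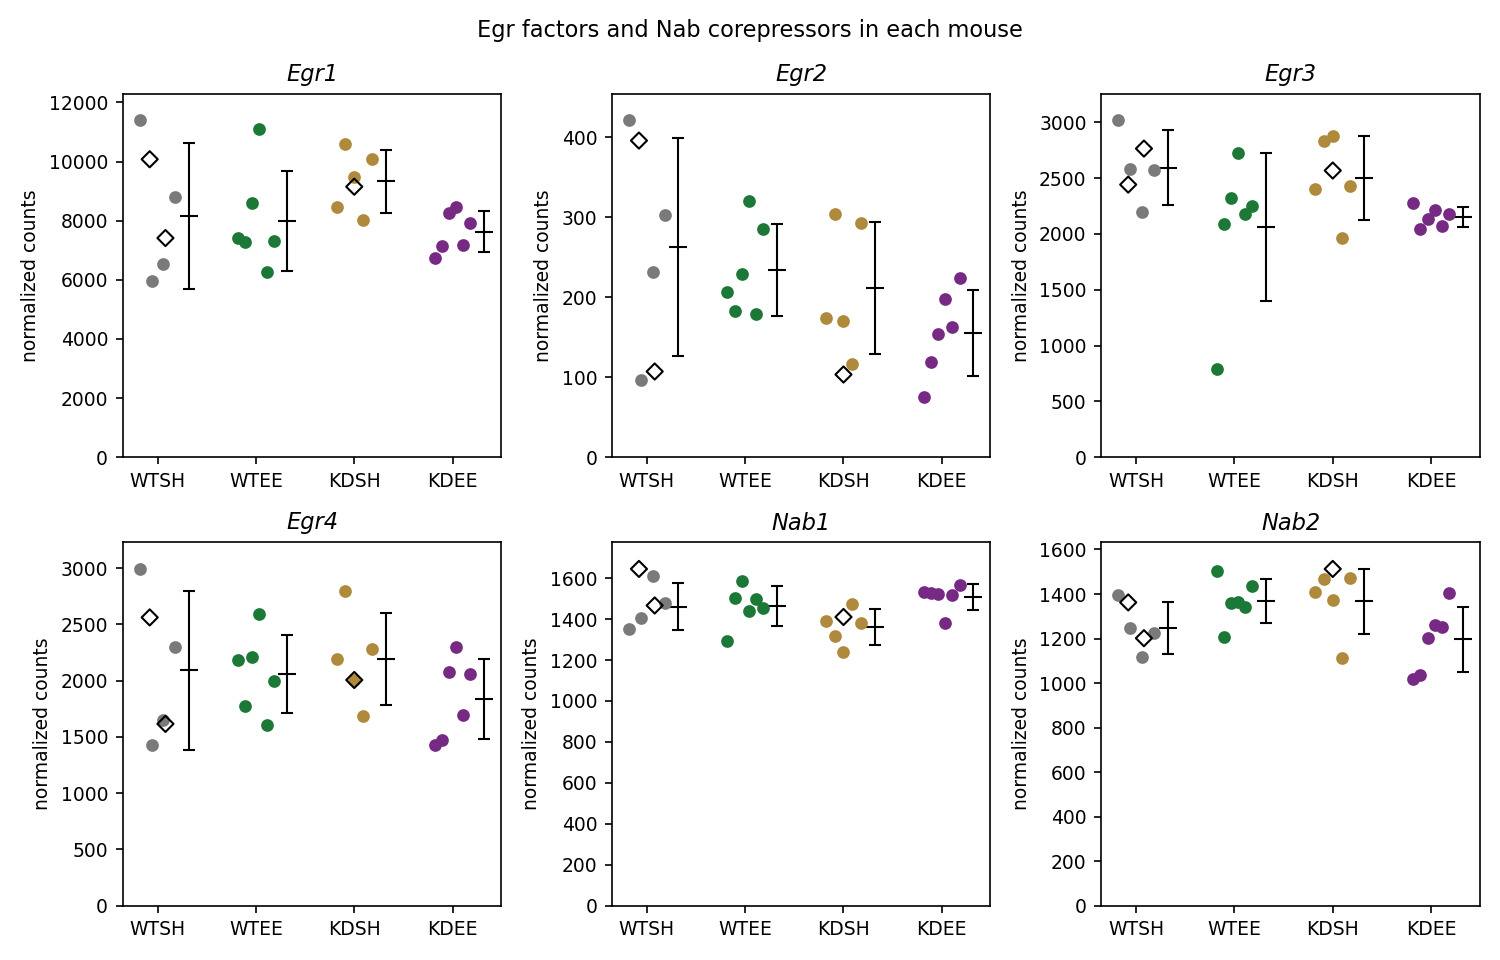
Normalized counts of each of the 6 genes (y axis, linear and starting at 0) in each library of WTSH, WTEE, KDSH and KDEE (x axis), with points for the 21 libraries, open diamonds for the 3 left-out ones and bars for the mean and SD of the kept libraries. The groups overlap for every gene, WTSH spans 5958 to 11391 for Egr1, and the count of 788 for Egr3 in WTEE sample 10 lies far below the rest.

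The 4 factors varied more between mice of the same group than most genes of their abundance. The within-group SD, on the log2 scale, was 0.26 for Egr1, 0.59 for Egr2, 0.38 for Egr3 and 0.31 for Egr4. Among genes within 1.5 times of the same mean count, 92.8% had a smaller SD than Egr1, 95.9% than Egr2, 97.9% than Egr3 and 96.5% than Egr4, with median SDs of 0.22 among the neighbours of Egr2 and 0.13 among those of Egr1, Egr3 and Egr4. Without WTEE sample 10 the SD of Egr3 was 0.16, above that of 88.3% of genes of its abundance, and those of Egr1, Egr2 and Egr4 were 0.27, 0.61 and 0.32, above 99.4%, 97.2% and 98.6%. The SD of Nab1 over the 21 mice was 0.09, which 19.8% of genes of its abundance fell below, and that of Nab2 was 0.15, with 58.3% below. Without WTEE sample 10 the SD of Nab1 was 0.08, with 27.3% below. That of Nab2 was then 0.15, with 80.2% below, near the 88.3% of Egr3. The 4 groups accounted for 18.6%, 20.5%, 19.2% and 10.1% of the total spread of Egr1, Egr2, Egr3 and Egr4 and for 30.6% and 30.05% of that of Nab1 and Nab2, against a median of 16.2% over all genes tested.

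The first comparison asked whether enrichment moved these genes in WT mice. None of the 6 was called between WTEE and WTSH (edgeR, adjusted p under 0.05 and a log2 fold change over 0.38 in size), where 0% of the 20187 genes tested were called and 1322 (6.55%) had an unadjusted p under 0.05. For Egr1 and Egr4 the estimates lay close to 0, with log2 fold changes of -0.03 (95% interval -0.36 to 0.29) and -0.02 (-0.41 to 0.36). The difference was -0.17 (-0.86 to 0.52) for Egr2 and -0.33 (-0.74 to 0.08) for Egr3, and the smallest edgeR adjusted p value of a member was 0.651, of Egr3 and Nab2. The Egr3 value was -0.16 without WTEE sample 10. Nab1 differed by 0.00 (-0.13 to 0.13) and Nab2 by 0.13 (-0.06 to 0.33). The intervals of Egr2, Egr3 and Egr4 extend past 0.38 in size, so for these genes the data do not leave out a difference of the size of the threshold.

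In MSK1 KD mice all 4 factors had lower means under enrichment, without passing the test. Between KDEE and KDSH, 0% of genes were called and 2345 (11.6%) had an unadjusted p under 0.05. The log2 fold change was -0.29 (-0.60 to 0.01) for Egr1 with an edgeR adjusted p = 0.443, -0.45 (-1.11 to 0.21) for Egr2 with 0.548, -0.22 (-0.61 to 0.17) for Egr3 with 0.618 and -0.25 (-0.61 to 0.11) for Egr4 with 0.536. Nab1 and Nab2 differed in opposite directions and had unadjusted p values under 0.05 (edgeR, 0.0219 and 0.0383): Nab1 by 0.15 (SE 0.06, adjusted p = 0.396) and Nab2 by -0.19 (SE 0.09, adjusted p = 0.414). In this comparison 12 of the 12 choroid plexus markers were higher in KDEE at an unadjusted p under 0.05, with none called, as were 5 of the 5 red blood cell markers. The latter summed to 1776 to 3725 normalized counts in KDSH and 3488 to 11616 in KDEE, and to 2696 to 3496 in WTSH and 2701 to 18859 in WTEE, where 5 of 5 were also higher than in WTSH at that level. The part of both lists in the members' values was not tested.

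The sign of the estimate was lower under enrichment in both genotypes for 4 of the 4 factors, as it was for 34.3% of all genes tested. Egr1, Egr2 and Egr4 varied together between mice, as given below, so these are not 4 separate results. Without WTSH sample 2, the estimates in WT mice were 0.17 for Egr1, 0.15 for Egr2 and 0.20 for Egr4, so that Egr3 alone was lower in both genotypes. With the genotypes averaged, the log2 differences between enriched and standard housing were -0.16 for Egr1, -0.31 for Egr2, -0.27 (-0.56 to 0.01) for Egr3 (-0.19 without WTEE sample 10) and -0.14 for Egr4. The edgeR adjusted p values of the 4 factors lay between 0.277 for Egr3 and 0.536 for Egr4. Nab1 and Nab2 were at 0.07 and -0.03. In this averaged comparison 0.00495% of genes were called, which is 1 gene, and 18.9% had an unadjusted p under 0.05. None of the 6 members was among either.

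Genotype was compared within each housing. Between KDSH and WTSH, where 0% of genes were called and 1% had an unadjusted p under 0.05, the log2 differences of the members ranged from -0.31 (-1.03 to 0.40) for Egr2 to 0.19 (-0.15 to 0.53) for Egr1. Between KDEE and WTEE the corresponding shares were 0% and 4.99%. Egr2 had the widest difference there, -0.59 (-1.22 to 0.03), or 0.662-fold, with an edgeR adjusted p = 0.957. Nab2 differed by -0.20 (-0.37 to -0.02), with an unadjusted p = 0.0287 and an adjusted p = 0.876 in edgeR. Without WTEE sample 10 it was at -0.17, with an edgeR adjusted p = 0.933 and an unadjusted value no longer under 0.05. With housing averaged, Egr2 was lower in MSK1 KD mice by an estimate of -0.45 (-0.93 to 0.02), while Egr1, Egr3 and Egr4 lay between -0.05 and 0.06 (Egr3 at -0.08 without WTEE sample 10). In that comparison 0% of genes were called and 1.9% had an unadjusted p under 0.05.

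The difference between the responses of WT and MSK1 KD mice to enrichment, (WTEE - WTSH) - (KDEE - KDSH), was tested as the interaction. The comparison called 0% of genes, and 659 (3.26%) had an unadjusted p under 0.05. Nab2 had the only member interval that left out 0, at 0.33 (0.06 to 0.59), with an unadjusted p = 0.0182 and an edgeR adjusted p of 1.0. Its means were 1247 ± 116 (SD, n = 4) in WTSH and 1369 ± 99.2 (SD, n = 6) in WTEE, against 1366 ± 148 (SD, n = 5) in KDSH and 1196 ± 148 (SD, n = 6) in KDEE. Opposite signs in the genotypes were found in 29.4% of all genes. The estimates of the factors were 0.26 (-0.18 to 0.71) for Egr1, 0.28 (-0.68 to 1.24) for Egr2, -0.11 (-0.68 to 0.45) for Egr3 and 0.23 (-0.30 to 0.76) for Egr4, and that of Nab1 was -0.14 (-0.32 to 0.03). Without WTEE sample 10 the estimate was 0.29 for Nab2 (edgeR adjusted p = 0.972) and 0.05 for Egr3. The interval of Egr2 was the widest.

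Over the 7 comparisons, 4 of the 42 tests on members had an unadjusted p under 0.05, while the share of all genes at that level ran from 1% to 18.9% by comparison. The 4 were Nab1 and Nab2 between KDEE and KDSH (11.6% of all genes), Nab2 between KDEE and WTEE (4.99%) and Nab2 in the interaction (3.26%). All 4 involve the KDEE libraries and the comparisons share groups, so these are not separate results. In 24 of the 24 combinations of a member with a pair of groups (the housing pairs within each genotype and the genotype pairs within each housing), the ranges of the groups overlapped. Ranges did not overlap for 0.986% of genes between WTEE and WTSH, 1.84% between KDEE and KDSH, 0.644% between KDSH and WTSH and 0.624% between KDEE and WTEE. By the Wald test of DESeq2, which the study used, none of the 6 members was called either, while it called 0.00529% of genes between WTEE and WTSH, 0.0371% between KDEE and KDSH, 0% between KDSH and WTSH, 0.312% between KDEE and WTEE, 0.0529% in the interaction, 0.109% with genotypes averaged and 0% with housing averaged.

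**Figure D2:**
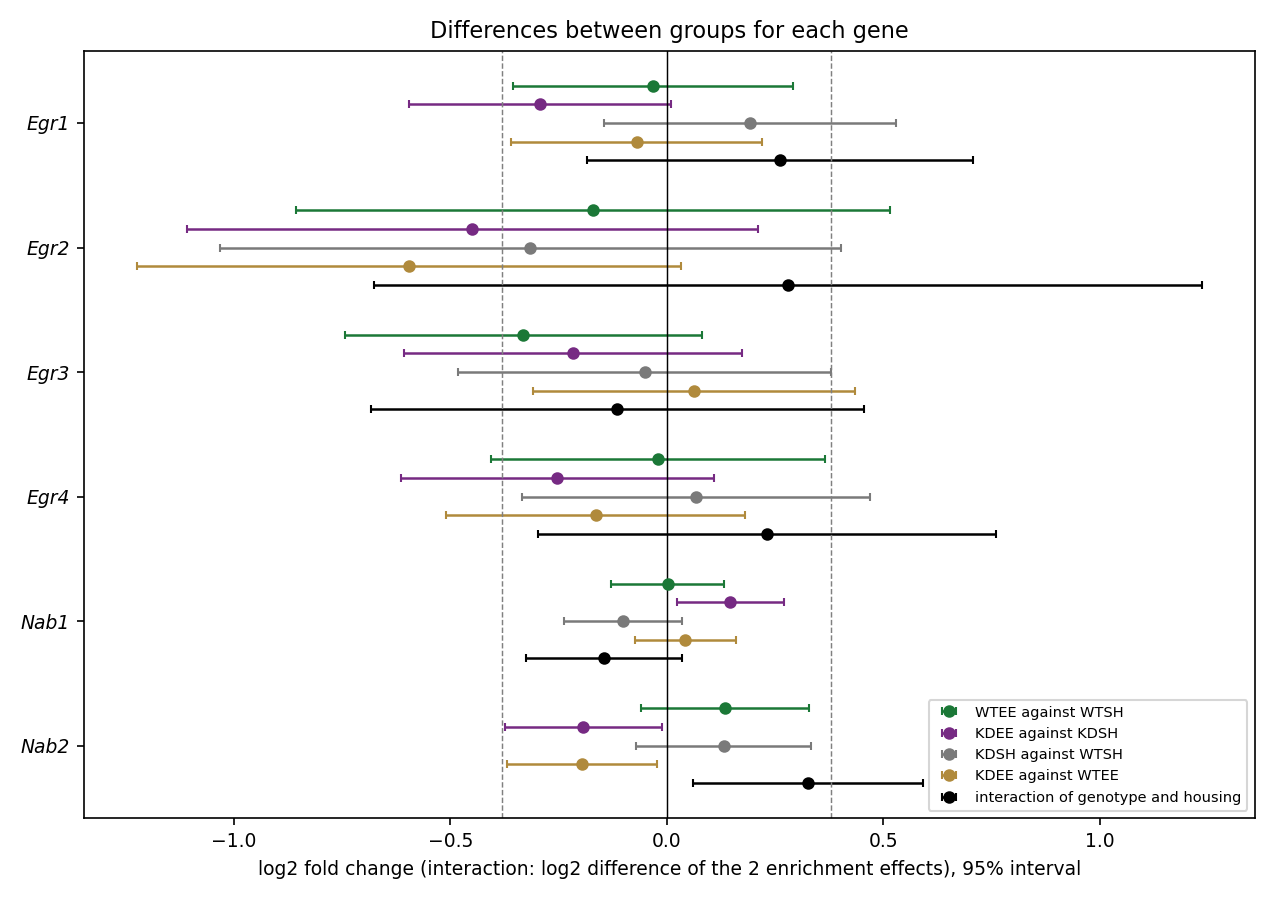
Log2 differences (x axis) of the 6 genes (y axis) in the 4 pairs of groups and in the interaction, from the edgeR fit over 21 libraries, with points for the estimate, lines for the 95% interval and dashed lines at 0.38 in either direction. None passes the adjusted threshold, the intervals of Egr2 are the widest, from -1.22 to 0.03 between KDEE and WTEE, and the Nab2 interaction lies at 0.33.

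Egr1, Egr2 and Egr4 went up and down together between mice of the same group. After the group means were subtracted from log2 CPM, Egr1 and Egr4 had a Pearson r of 0.91 over the 21 mice (Spearman's rho 0.92, permutation p = 1e-05, adjusted p = 9e-05), where 1e-05 is the smallest p value that 100000 permutations within groups can give. Egr2 and Egr4 had r = 0.87 (rho 0.88, permutation p = 1e-05, adjusted p = 9e-05) and Egr1 and Egr2 r = 0.78 (rho 0.83, permutation p = 7e-05, adjusted p = 0.000525). Without the 2 mice farthest from the median of the first gene, WTSH sample 2 with WTEE sample 16 or with KDEE sample 9, these r were 0.90, 0.84 and 0.77. They were also seen inside single groups, though with too few mice for a test: r was 0.91 in WTEE and 0.96 in KDEE for Egr1 with Egr4, 0.78 and 0.85 for Egr2 with Egr4, and 0.77 and 0.79 for Egr1 with Egr2. All adjusted values here are over the 45 relations computed.

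WTSH sample 2 ranked 1 of 21 for each of the 4 factors. It was also the kept library with the most structural RNA (1232580 normalized counts, 2.49% of its counts) and the highest share of reads on no feature (15.7%), whose part in its ranks was not tested. The r of Egr1 with the structural RNA share was 0.37 with this mouse and -0.01 without it. KDSH sample 3 ranked 3, 3, 3 and 2 for Egr1, Egr2, Egr3 and Egr4, and WTEE sample 16 ranked 2, 2, 4 and 3. At the other end, WTSH sample 5 ranked 21, 20 and 21 for Egr1, Egr2 and Egr4 but 5 for Egr3.

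Nab2 varied with Egr4 and Egr2, while over the 21 mice Nab1 passed with no other member. Nab2 had r = 0.68 with Egr4 (rho 0.65, permutation p = 0.00163, adjusted p = 0.0105) and r = 0.66 with Egr2 (rho 0.73, permutation p = 0.0028, adjusted p = 0.0157). Without the 2 farthest mice these were 0.73 and 0.56. The relation with Egr2 no longer passed without KDSH sample 18 (adjusted permutation p = 0.0802) or KDEE sample 9 (adjusted permutation p = 0.0557). With Egr1 the r of Nab2 was 0.46 and the adjusted permutation p = 0.0957. In KDEE alone Nab2 had r = 0.93 with Egr2 and 0.81 with Egr4, and in WTEE 0.38 and 0.42; these were not tested against each other. Nab1 had r of -0.32, -0.17, 0.20 and -0.40 with Egr1, Egr2, Egr3 and Egr4 and -0.50 with Nab2 (adjusted permutation p = 0.0957).

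Whether Egr3 took part in this covariation turned on WTEE sample 10. With all 21 mice its r was 0.36 with Egr1, 0.23 with Egr2 and 0.18 with Egr4, none past the threshold. Without that mouse, an alternative chosen after the data were seen, r over 20 mice was 0.69 with Egr1 (rho 0.66, permutation p = 0.00281, adjusted p = 0.0115), 0.63 with Egr4 (rho 0.60, permutation p = 0.00751, adjusted p = 0.0282) and 0.42 with Egr2 (adjusted permutation p = 0.228). Its r with Nab2 was then 0.56 (adjusted permutation p = 0.0409) and with Nab1 -0.75 (adjusted permutation p = 0.00765), the latter with a rho of -0.55 that did not pass (adjusted permutation p = 0.0697). The number of member pairs past an adjusted p of 0.05 was 5 of 15 with WTEE sample 10 and 10 of 15 without it.

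**Figure D3:**
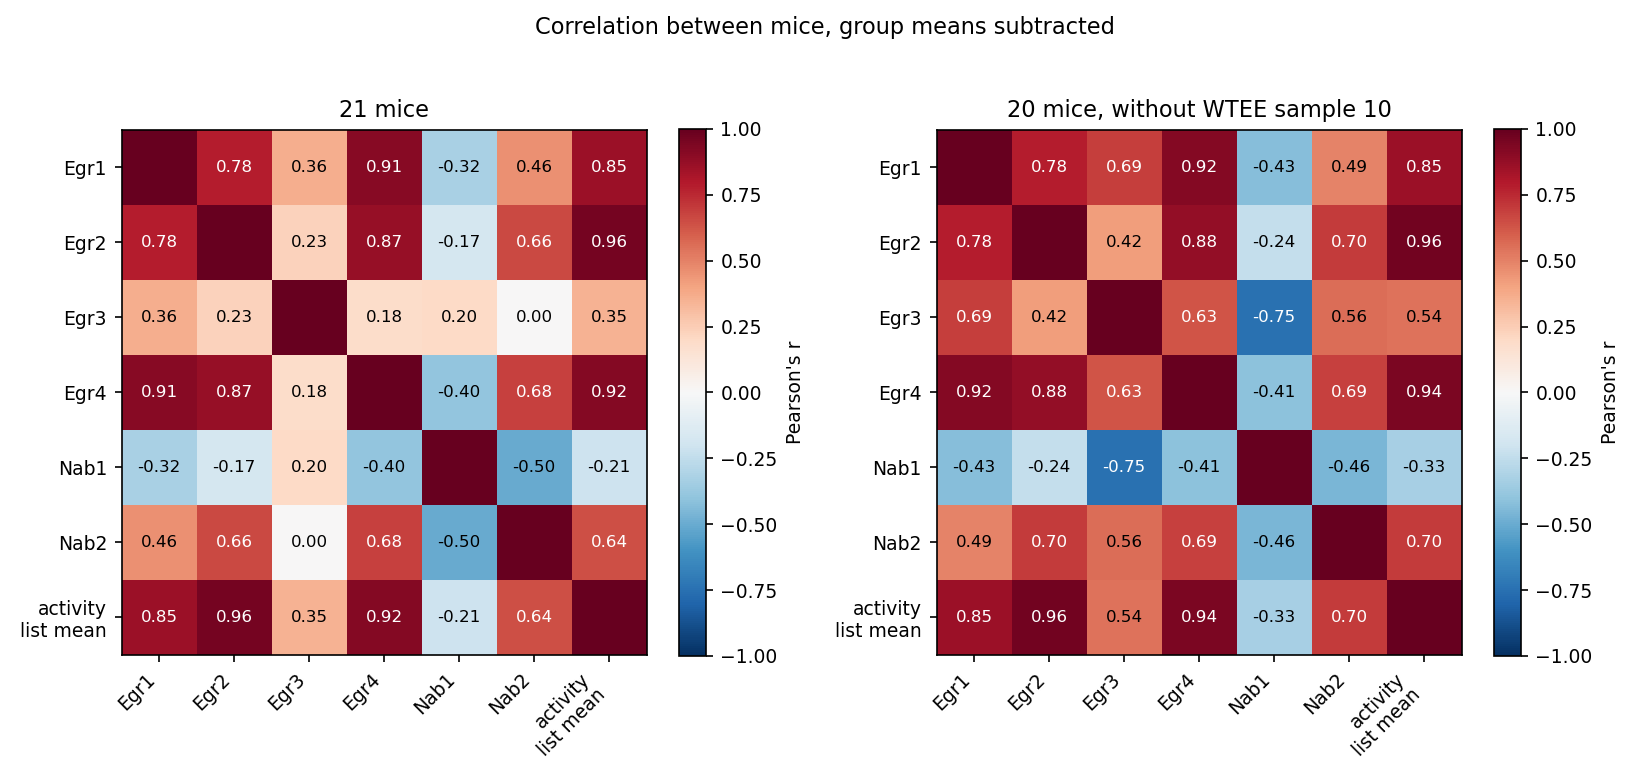
Pearson r over mice between each pair of the 6 genes and the mean of the 25 other activity-regulated genes (activity list mean), from log2 CPM with group means subtracted, in 21 mice and in the 20 without WTEE sample 10 (colour scale from -1 to 1). Egr1, Egr2 and Egr4 form a block of 0.78 to 0.91 with all mice and 0.78 to 0.92 without that mouse, while the r of Egr3 with Egr1 goes from 0.36 to 0.69.

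**Figure D4:**
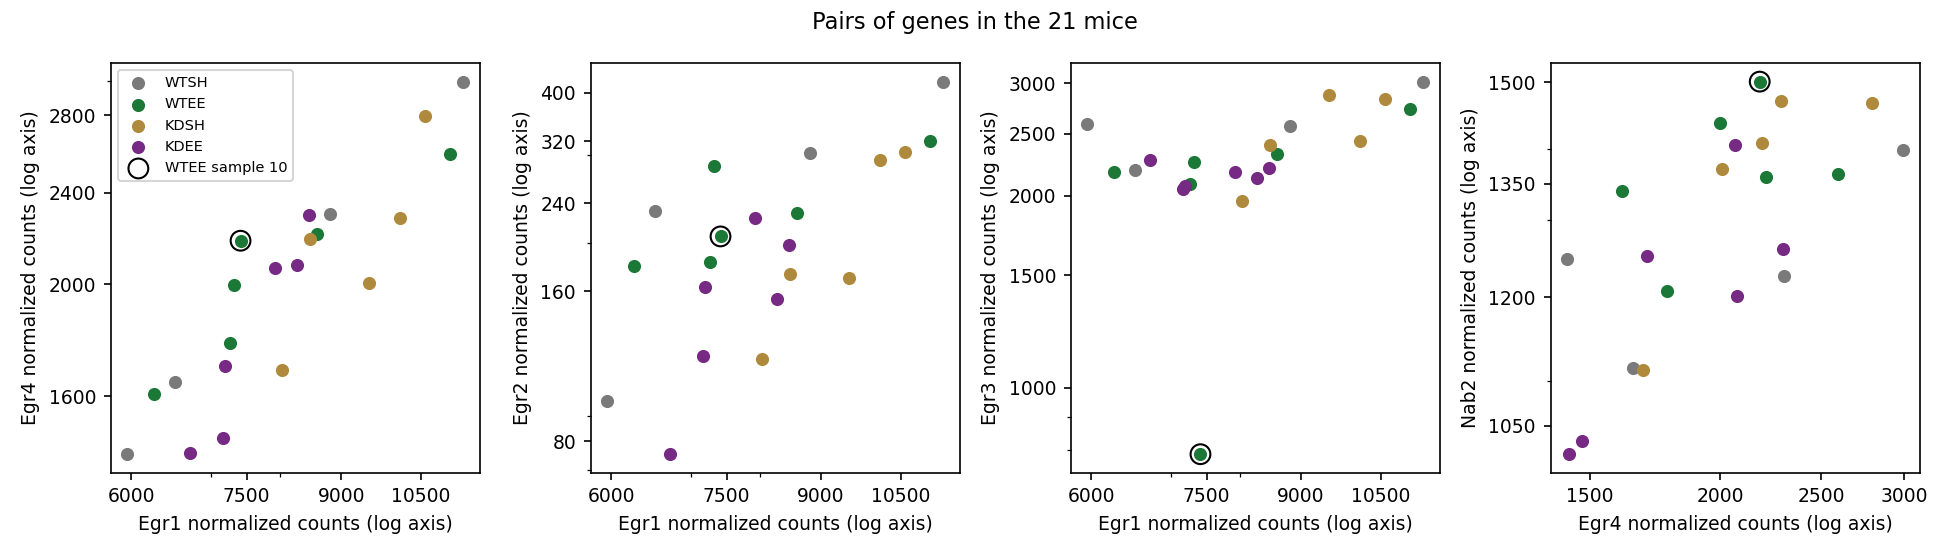
Normalized counts of 4 pairs of genes in the 21 mice on logarithmic axes, 1 point per mouse coloured by group, with WTEE sample 10 ringed. Egr1 rises with Egr4 (r = 0.91 after group means were subtracted) and with Egr2, Nab2 rises with Egr4, and the ringed mouse is at 788 counts for Egr3 with ordinary counts of Egr1 and Egr4.

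A list of 25 other activity-regulated genes was set beside the members. The mean log2 level of the list had r = 0.96 with Egr2, 0.92 with Egr4 and 0.85 with Egr1 (rho 0.93, 0.91 and 0.89, each with a permutation p = 1e-05 and an adjusted p = 9e-05), and 0.64 with Nab2 (adjusted permutation p = 0.0177). With Egr3 it was 0.35 (adjusted permutation p = 0.171), or 0.54 without WTEE sample 10 (adjusted permutation p = 0.0912), and with Nab1 -0.21. Single genes of the list differed: for Egr2, r ran from -0.22 with Homer1, a scaffold protein whose short form is induced, to 0.96 with Nr4a1, a nuclear receptor.

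The relations with tissue makeup and depth were weaker. None of the 24 relations of the members with the choroid plexus markers, the 3 dentate gyrus markers, the share of structural RNA or the counts on genes passed an adjusted p of 0.05 by Pearson's r over the 21 mice. The largest in size were -0.55 between Nab2 and the counts on genes (adjusted permutation p = 0.0667, rho -0.61 with an adjusted p = 0.0279) and 0.55 between Egr3 and the dentate gyrus markers (adjusted permutation p = 0.0972), the latter 0.35 without the 2 farthest mice. With DESeq2 size factors instead of TMM, the r of Nab2 with the counts on genes was -0.57 and passed (adjusted permutation p = 0.0491). Egr3 and the choroid plexus markers had r = -0.45 (adjusted permutation p = 0.168) and a rho of -0.51 that passed (adjusted permutation p = 0.0457). Without WTEE sample 10, Nab1 and the choroid plexus markers had r = 0.54 (adjusted permutation p = 0.0419, rho 0.47 with an adjusted p = 0.0609). The part of depth and of attached tissue in these values was not tested.

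Among 14997 other genes with a mean of at least 50 normalized counts, the 5 most like each member over the 21 mice are given as a description. For Egr2 they were Nr4a1 (r = 0.96), Arc (0.95), the dendritic activity gene, Fos (0.94) and Junb (0.91), subunits of AP-1, and Dusp6 (0.87), a dual-specificity phosphatase. For Egr4 they were Junb (0.92), Egr1 (0.91), Nr4a1 (0.87), Fos (0.87) and Egr2 (0.87). Egr1 was most like Egr4 (0.91), the potassium channel gene Kcnk12 (0.87), Midn (0.80), Arc (0.80) and Fos (0.79). Of the 25 activity-regulated genes, 15 were in the 100 genes most like Egr1, 15 in those most like Egr2 and 13 in those most like Egr4.

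Egr3 and the corepressors had other neighbours. Egr3 was most like Dnajc16 (0.98), Cmip (0.97), Cntnap1 (0.97), Bsn (0.96) and Slc25a44 (0.96), with 0 activity-regulated genes in its first 100. Without WTEE sample 10 the first 5 were Per1 (0.95), a clock gene that is also activity-regulated, Ulk1 (0.88), Slc25a44 (0.87), Cacnb1 (0.87) and Exog (0.87), with 2 activity-regulated genes in the first 100. Nab1 was most like Synm (0.90), Nek9 (0.88), Sap30bpos (0.85), Celsr1 (0.84) and Tbcd (0.84), and Nab2 like Dnd1 (0.91), Sirt7 (0.88), Preb (0.84), Pdlim7 (0.83) and Stk19 (0.83). In the first 100 there were 0 activity-regulated genes for Nab1 and 3 for Nab2. As values of the same libraries, these likenesses share depth and normalization.

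The rest of the pathway was read from lists, in which no gene was called in any of the 7 comparisons. Of the 25 activity-regulated genes, 2 had a lower level at an unadjusted p under 0.05 between WTEE and WTSH, 4 between KDEE and KDSH, 3 between KDEE and WTEE, 4 in each averaged comparison and 0 in the others, and none a higher one. Across all genes the share lower at that level was 2.60%, 5.98% and 3.21% for the first 3 of these comparisons, and 9.13% and 1.14% for housing and genotype averaged. Many genes of the list varied with Egr2 between mice (median r 0.67), so its genes are not separate results. The median log2 difference of the list was 0.05 between WTEE and WTSH, -0.14 between KDEE and KDSH, -0.16 between KDEE and WTEE and -0.03 between KDSH and WTSH, with medians over all genes of at most 0.01 in size.

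The genes of that list with the smallest unadjusted p values were as follows. Between WTEE and WTSH, Homer1 had a log2 difference of -0.43, Nr4a3 of -0.29 and the AP-1 subunit Fosl2 of -0.26, each with an edgeR adjusted p = 0.651. Between KDEE and KDSH, Homer1 was at -0.36, Fosb at -0.43 and Nr4a3 at -0.28, with adjusted p values of 0.377, 0.396 and 0.396. With genotypes averaged, Homer1 stood at -0.40 (adjusted p = 0.174), Nr4a3 at -0.29 and Fosl2 at -0.28. Gadd45b, a stress and demethylation gene, had -0.38 between KDEE and WTEE (adjusted p = 0.361), followed by the phosphatase gene Dusp5 at -0.35 and the neurotrophin gene Bdnf at -0.16. Between KDSH and WTSH these genes were Bdnf at -0.14, Gadd45b at -0.23 and Dusp1 at -0.29, and with housing averaged Gadd45b was at -0.30, Bdnf at -0.15 and Dusp1 at -0.29. In the interaction, Dusp5 was at 0.34, Junb at 0.32 and Maff at 0.30, with adjusted p values of 1.0.

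The 18 genes that carry signals to the Egr promoters (MSK, RSK and other kinases, CREB, serum response factor and their partners) included none that was called. With genotypes averaged, 6 had a lower level under enrichment at an unadjusted p under 0.05 and 0 a higher one, against 9.13% lower and 9.77% higher over all genes, with a median of -0.09, and among them were Creb1 (-0.12, edgeR adjusted p = 0.214) and its coactivator Crtc2 (-0.11). In the other comparisons few had an unadjusted edgeR p under 0.05: 1 between WTEE and WTSH, 2 between KDEE and KDSH and 1 between KDEE and WTEE, all lower. Between KDSH and WTSH, with housing averaged and in the interaction there were 0. The genes named next had the smallest p values, whether or not under 0.05. Within WT mice Creb1 was at -0.14, Elk1 at -0.18 and Rps6ka2 at -0.14, and within MSK1 KD mice Crtc2 was at -0.15, Elk4 at -0.13 and Crebbp at -0.17. Rps6ka5 itself had log2 differences of 0.13 between KDEE and WTEE and 0.09 with housing averaged. Elk4 (-0.12) and Rps6ka2 (0.15) were the others between KDEE and WTEE. Between KDSH and WTSH they were Elk3 (-0.11), Crtc2 (0.04) and Rps6ka2 (0.05), with housing averaged Rps6ka2 (0.10) and Elk4 (-0.06), and in the interaction Elk4 (0.11), Crtc2 (0.09) and Rps6ka2 (-0.10).

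Of 13 genes with described Egr sites, among them both corepressors, 3 had an unadjusted p under 0.05 between KDEE and KDSH, where 11.6% of all genes did: Nab1 and Nab2, already counted above, and Th, tyrosine hydroxylase, with a log2 difference of 0.40 (edgeR adjusted p = 0.421). At that level there were 0 of the 13 between WTEE and WTSH, between KDSH and WTSH and with housing averaged. There was 1 between KDEE and WTEE and 1 in the interaction, and with genotypes averaged 1 was higher and 2 lower. The genes of smallest p, whether or not under 0.05, are named next. Between WTEE and WTSH they were Syn2 (-0.13), a synapsin, Nab2 (0.13) and Mmp9 (0.18). With genotypes averaged they were Cdk5r1 (-0.12), Syn2 (-0.12) and Th (0.28). Between KDEE and WTEE they were Nab2, Arc (-0.25) and the NMDA receptor gene Grin1 (-0.07), between KDSH and WTSH Th (-0.36), Nab1 and Nab2, with housing averaged Th (-0.25), Cdk5r1 (0.08) and Dlg4 (0.06), and in the interaction Nab2, Nab1 and Mmp9 (0.20). Of the 5 myelin genes known as Egr2 targets in Schwann cells, 4 were tested, and 3 had a higher level under enrichment at an unadjusted p under 0.05 with genotypes averaged, where 9.77% of all genes did: Pmp22 (0.25, edgeR adjusted p = 0.179), Mag (0.24) and Mbp (0.26). These genes are named after their values were seen. The remaining tested gene had a lower estimate with genotypes averaged and in MSK1 KD mice, with an edgeR unadjusted p not under 0.05 in either. In WT mice the estimates of all 4 were higher. Within WT mice 1 of the 4 had such a p value (3.95% of all genes were higher at that level) and within MSK1 KD mice 3 (5.64%). The 5 genes summed to 146911 to 212161 normalized counts in WTSH and 162000 to 209933 in WTEE. In KDSH they summed to 134755 to 188038 and in KDEE to 165019 to 207828. Egr2 itself had an estimate of -0.31 with genotypes averaged, and a relation of these genes to Egr2 in the hippocampus was not tested.

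The 3 libraries left out by the study mostly lay among the others. Of their 18 values, 15 were within the range of the kept libraries of their group and 16 within that of all 21. Structural RNA made up 22.8% and 22.6% of the counts of WTSH samples 4 and 7 and 5.50% of those of KDSH sample 6. The Egr2 value of WTSH sample 7 rests on 38 raw counts. WTSH samples 4 and 7 had 10078 and 7413 counts of Egr1, 396 and 107 of Egr2, 2442 and 2764 of Egr3 and 2563 and 1616 of Egr4. KDSH sample 6 had 9149 counts of Egr1, 103 of Egr2, 2568 of Egr3 and 2006 of Egr4. The exceptions were Egr2 in KDSH sample 6, below the 117 to 305 of its group, Nab1 in WTSH sample 4, at 1645 against at most 1612, and Nab2 in KDSH sample 6, at 1513 against at most 1501 in the 21.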

How the data were processed

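Per the labels and the study's methods, the authors prepared TruSeq v2 libraries, trimmed the read pairs (Skewer), mapped them to GRCm38 (STAR 2.5) and counted unique alignments per gene with HTSeq 0.6.1p1 without regard to strand. The deposited values are raw counts per gene symbol. The 5 rows that name no gene (13.1% to 50.2% of a library) were left out of library sizes and tests. The libraries carry no molecular identifiers, so PCR copies are included: the counts are not molecules and give only a lower limit on the error.

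Groups came from the sample titles. No replicate was a copy of another (60 pairs compared, lowest chi-square per degree of freedom 6.57). Counts were scaled by TMM to the mean effective library size of the 21 libraries (normalized counts). Genes passing filterByExpr entered edgeR 4.0.16 (R 4.3.3) and its quasi-likelihood test, in 1 model of 4 groups, with Benjamini-Hochberg adjustment over all 20187 genes and 95% intervals from the fit. A gene was called at an adjusted p under 0.05 and a log2 fold change over 0.38 in size, the study's thresholds. Correlations used log2 CPM with a prior count of 2, minus the group mean, and were tested two-sided with 100000 permutations within groups (numpy 2.4.6, scipy 1.17.1). Gene lengths are from GENCODE M21 (95.1% of symbols matched 1 gene), promoter windows from RefSeq.

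Named genes are the members, Rps6ka5, the 3 genes of smallest unadjusted p of the activity, input and Egr site lists in each comparison, and the 5 genes most like each member, with myelin genes added after their values were seen. A gene that this rule names in 1 comparison is not reported here. The members and lists were chosen with earlier results of these data known. Alternatives were the Wald test of DESeq2 1.42.0, DESeq2 size factors in edgeR, no filter, at least 10 counts in every library, all 24 libraries, only the groups compared, no threshold on the fold change, a prior count of 0.5, correlations without subtracting group means, and leaving out each library in turn. The correlations, spread and likeness without WTEE sample 10 and the level of Nab2 over unshared bases were added after the data were seen. The tests were tested on simulated data first.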

Additional observations from a re-analysis of the deposited data

Results flagged for a closer look

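In 3 of the 24 combinations of a gene with a group, 1 mouse lay far from the rest of its group (the gap to the nearest mouse, divided by the range, was above the 95% limit of Dixon's test), where chance alone gives about 1 in 20. Egr3 in WTEE sample 10 had 788 normalized counts, the lowest of 6 mice, in the library that was lowest of all for 29.0% of genes. Nab1 in KDEE sample 15 had 1379, also the lowest of 6, with the other 5 between 1520 and 1568. Nab2 in KDSH sample 18 had 1113, the lowest of 5, in a mouse that was also lowest of its group for Egr1, Egr2, Egr3 and Egr4.

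In the libraries left out by the study, Nab1 had 1645 normalized counts in WTSH sample 4, above the 1612 that was the highest of the 21, and Nab2 had 1513 in KDSH sample 6, above the 1501 that was the highest of the 21. These values rest on 407 and 1170 raw counts and lie little above the highest kept library. The cause was not tested.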

How the results depend on the processing

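None of the 6 members was called in any of the 7 comparisons under any setting, and the smallest adjusted p value of a member in any setting was 0.1245. Of 1116 recomputed fold changes of members, 34 changed sign, 31 of them when 1 library was left out. No paired analysis was possible because no mouse number occurs in more than 1 group. With 4 to 6 mice in a group, the wide intervals of Egr2 do not leave out differences past the threshold.

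The Wald test of DESeq2 called 2 genes between WTEE and WTSH, 14 between KDEE and KDSH, 118 between KDEE and WTEE, 20 in the interaction and 41 with genotypes averaged, none of them a member. With all 24 libraries edgeR called 1 gene between WTEE and WTSH and 15 with genotypes averaged, and with only the 2 groups compared 1 between KDEE and KDSH. Leaving out each library gave 0 to 1 calls between WTEE and WTSH (1 without WTEE sample 13) and 0 to 6 with genotypes averaged (0 without WTSH sample 5 or 19, 6 without WTEE sample 21, 2 without KDSH sample 18 or KDEE sample 20). Which change in the fit made these counts differ was not tested.

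The sign turned without the filter for Egr3 with housing averaged (-5.446e-05) and for Nab1 between WTEE and WTSH (-0.003145), and for the latter with all 24 libraries (-0.0216). The r of Egr3 with Nab2 was -0.01605 with DESeq2 size factors, -0.004822 with all 24 libraries and -0.03876 with group means not subtracted. Leaving out 1 library at a time turned signs within these ranges of the log2 difference. Between WTEE and WTSH they were -0.1549 to 0.1702 for Egr1, -0.4445 to 0.1501 for Egr2, -0.1644 to 0.2019 for Egr4 and -0.03467 to 0.05478 for Nab1. Between KDSH and WTSH they were -0.5934 to 0.001334 for Egr2, -0.1253 to 0.02487 for Egr3 and -0.08023 to 0.286 for Egr4. Between KDEE and WTEE they were -0.1345 to 0.04744 for Egr1 and -0.1024 to 0.1601 for Egr3. In the interaction they were -0.002395 to 0.5922 for Egr2 and -0.2112 to 0.04842 for Egr3. With housing averaged they were -0.0003245 to 0.1622 for Egr1, -0.07816 to 0.05451 for Egr3, -0.1207 to 0.06241 for Egr4 and -0.05708 to 0.0009752 for Nab2, and with genotypes averaged -0.0623 to 0.003295 for Nab2. The signs of Egr1, Egr2 and Egr4 under enrichment in WT mice turned without WTSH sample 2, the highest mouse for all 4 factors.

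Of the 15 member pairs, 4 to 10 passed an adjusted p of 0.05 when 1 library was left out, 10 of them without WTEE sample 10. The r of Egr3 then ran from -0.75 to 0.31 with Nab1 and from -0.15 to 0.56 with Nab2. Egr2 with Nab2 no longer passed without KDSH sample 18 (adjusted permutation p = 0.0802) or KDEE sample 9 (adjusted permutation p = 0.0557). Egr1 with Nab2 passed with all 24 libraries (adjusted permutation p = 0.0459) and without WTEE sample 10 (adjusted permutation p = 0.0419).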
